A study of Arabidopsis thaliana with 12 samples.

Results

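PSB27 (AT1G03600), LPA19 (AT1G05385) and NdhS (AT4G23890) are nuclear genes of the photosynthetic thylakoid membrane. They were measured in Arabidopsis thaliana cell culture and make up 3 of the 691 genes that are the only gene of an array feature. Each has 1 such feature, and none of them occurs on a feature with several genes. The members were chosen from the same comparison that is described here: they are the photosynthesis genes that were lower with cytokinin at an adjusted p under 0.05 (limma) in a fit that treated arrays of the same replicate number as a block (the blocked fit). Their differences between water and cytokinin are therefore given as a description and carry no test.

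Total RNA came from wild-type cell culture of ecotype Columbia 0 and was hybridized to 12 arrays. Of these, 6 were of culture treated with water and 6 of culture treated with cytokinin, the plant hormone of cell division and greening, for 2 h. The labels name the control both as treated with water and as untreated, and they give neither a length for the water treatment nor the cytokinin used. The sources used here do not say whether the culture grew in light or whether the 6 replicates of a group are separate cultures. Any p-value thus covers only the spread among these arrays, part or all of which may be technical.

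The table holds linear hybridization intensities of 3439 features, with totals of 3743 to 3875 per array. They were quantile-normalized, floored at 0.258 and log2-transformed, which left 3091 features to test. The number of arrays limits the precision. None of 14 marker genes for dividing cells, green leaf tissue and other cell types, and none of 10 type-A response regulators, the early cytokinin response genes, has a feature to itself. The kind of cell and the response to the hormone could therefore not be checked on these genes.

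Photosystem II splits water and passes electrons into the thylakoid membrane, and its D1 protein is damaged by light and replaced again and again. Psb27 proteins lie in the thylakoid lumen and act while the photosystem is assembled or repaired, before the oxygen-evolving complex is in place. Arabidopsis has a pair of them. PSB27 is needed for recovery from light damage, and LPA19 is needed for the cutting of the D1 precursor at its C-terminus. The chloroplast NADH dehydrogenase-like (NDH) complex returns electrons from ferredoxin to the plastoquinone pool around photosystem I, and NdhS is the subunit on its stromal side that forms the docking site for ferredoxin.

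PSB27, the repair factor, had a normalized intensity with a lowest value of 1.22, a median of 3.02 and a highest value of 4.31 on the 6 water arrays. On the 6 cytokinin arrays these were 1.15, 2.41 and 3.35. The groups overlapped from 1.22 to 3.35, with only water array 2 above this stretch and cytokinin arrays 5 and 6 below it. The low values came from numbers 5 and 6 in both groups. The mean was 2.72 ± 1.18 in water and 2.31 ± 0.983 in cytokinin (SD, n = 6 arrays each), a log2 change of -0.23 (SE 0.37). In the blocked fit the change was the same and its SE was 0.056. Leaving out a single array moved the unblocked change to between -0.431, without water array 5, and -0.0522, without cytokinin array 5, while leaving out a number in both groups gave -0.276 to -0.201.

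LPA19, the D1 processing factor, was dim, between 1.54 and 2.07 times the floor. Its lowest, median and highest values were 0.462, 0.508 and 0.535 in water and 0.398, 0.428 and 0.455 in cytokinin. Every cytokinin array lay below every water array. The mean was 0.503 ± 0.028 in water and 0.428 ± 0.0211 in cytokinin (SD, n = 6 each), a log2 change of -0.23 with an SE of 0.053 without a block and 0.046 with it. Groups that do not overlap in this direction were found for 0.679% of the 3091 features, a share from which nothing is read because the same contrast chose the gene.

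NdhS, the ferredoxin-docking subunit of the NDH complex, was among the 26 brightest features on every array. Its lowest, median and highest values were 10.4, 11.7 and 17.5 in water and 9.42, 10.3 and 11.9 in cytokinin. The groups overlapped, and the water arrays numbered 1 and 2 stood above the other 10 arrays. The mean was 13.1 ± 2.98 in water and 10.6 ± 0.921 in cytokinin (SD, n = 6 each), a log2 change of -0.28 with an SE of 0.13 without a block and 0.07 with it. In these bulk samples, less RNA per cell and fewer cells that make it cannot be told apart, for this gene and for the others.

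**Figure D1:**
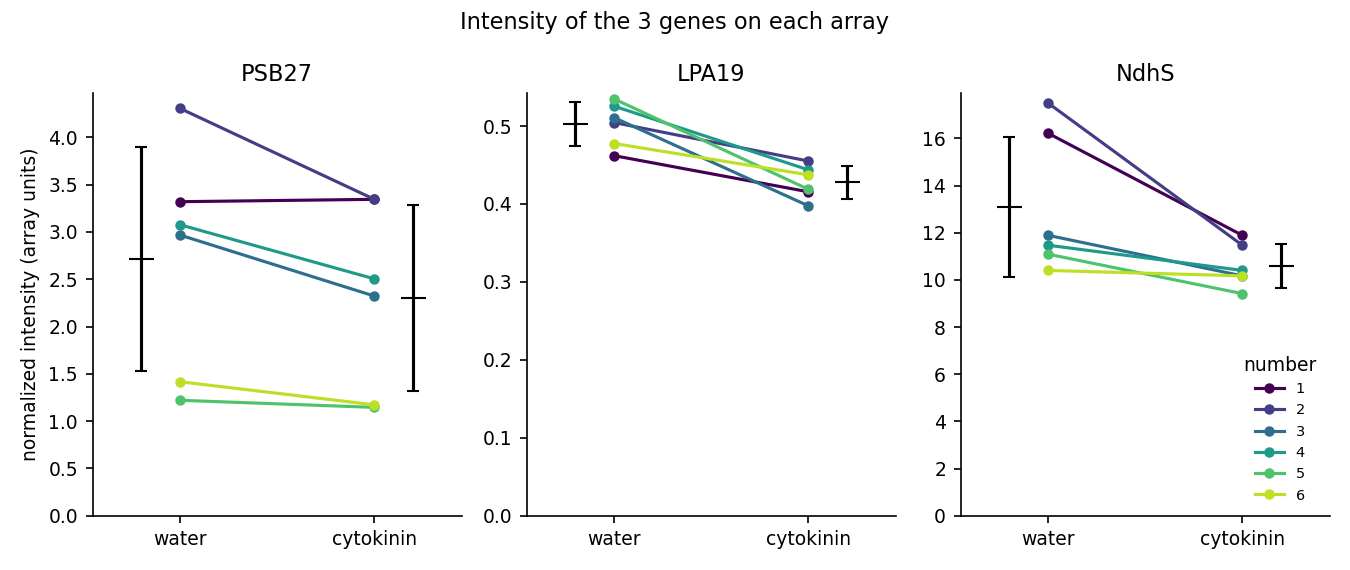
Normalized intensity (linear axis from 0) of PSB27, LPA19 and NdhS on the 6 water and 6 cytokinin arrays. Lines join arrays of the same replicate number, and bars are the mean ± SD of each group. PSB27 falls into separate levels by number in both groups, LPA19 has no overlap between groups, and NdhS is highest on water arrays 1 and 2.

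With the difference of mean log2 values turned back into a ratio, the intensity with cytokinin was 0.854 of that with water for PSB27, 0.852 for LPA19 and 0.822 for NdhS. The values that chose the members were adjusted p-values of the blocked fit, 0.0302 for PSB27, 0.0116 for LPA19 and 0.032 for NdhS (limma). Without the block they were 0.996, 0.0534 and 0.511. At that threshold 5.21% of all features tested were lower with cytokinin with the block and 0.453% without it. Just outside the threshold lay the NDH chaperonin gene Cpn60beta4, also lower with cytokinin, with an adjusted p of 0.0508 in the blocked fit.

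The ratio of cytokinin to water within arrays of the same number shows how even each difference was. For LPA19 the log2 ratio was below 0 in all 6 numbers, from -0.361 in number 3 to -0.127 in number 6. For NdhS it was also below 0 in all 6, but it ran from -0.609 in number 2 and -0.448 in number 1 to -0.0327 in number 6. For PSB27 it was below 0 in 5 of 6, between -0.364 and -0.0913, and it was 0.0109 in number 1. Ratios below 0 in all 6 numbers were found for 8.06% of the features tested and in at least 5 numbers for 18.7%. The numbers with the widest differences were shared only in part: NdhS was farthest from 0 in numbers 1 and 2, PSB27 in numbers 2 and 3, and LPA19 in numbers 3 and 5.

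The size of the NdhS difference depended on the scaling of the arrays. On the values as deposited its log2 change was -0.20, with 5 of 6 ratios below 0 and 0.0384 in number 6. After median scaling it was -0.10, with -0.00279 in number 5 and 0.147 in number 6. PSB27 gave -0.24 as deposited and -0.15 after median scaling, each with 5 of 6 ratios below 0. LPA19 gave -0.34 as deposited and -0.24 after median scaling, with all 6 ratios below 0 and no overlap of the groups in either. The median change of all features tested was -0.0725 as deposited, 0.0186 after median scaling and 0.00282 after quantile normalization. Quantile normalization gives a feature the value of its rank, and at the bright end, where NdhS lies, ranks are far apart in intensity. Whether this made the NdhS change differ between scalings was not tested.

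**Figure D2:**
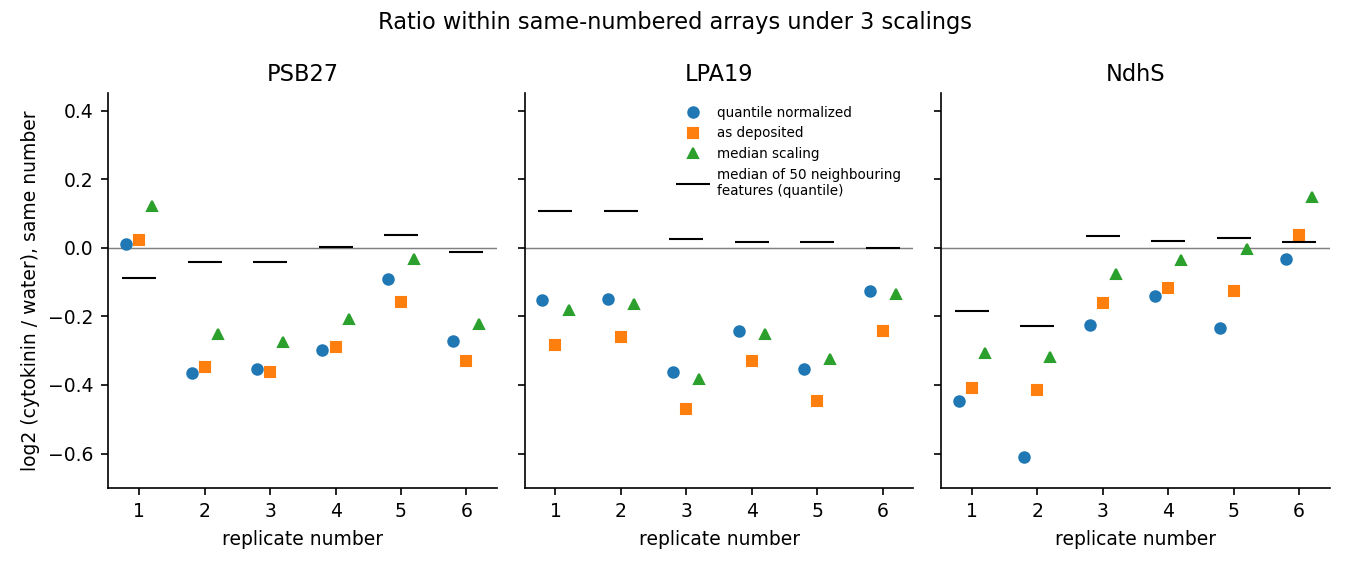
Log2 ratio of cytokinin to water (vertical axis) within each replicate number (horizontal axis) for PSB27, LPA19 and NdhS under 3 scalings, with the median ratio of the 50 features nearest in feature number as a black dash. LPA19 is below 0 everywhere, PSB27 is above 0 in number 1, and NdhS in number 6 lies below 0 only after quantile normalization.

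Features near a member in feature number were set beside it, since feature numbers may or may not reflect positions on the array. Among the 50 features nearest to NdhS the median log2 ratio was -0.183 in number 1 and -0.229 in number 2, and it lay between 0.0163 and 0.0346 in numbers 3 to 6. NdhS was thus below its neighbours' median in every number, though 22 of the 50 neighbours were lower still in number 6, and 1 to 12 in the others. Its 2 widest differences came where the neighbours were also low. Around LPA19 the neighbours lay at 0.108 and 0.106 in numbers 1 and 2 and between 0 and 0.0269 in the others, on the other side of 0 from the gene or at 0. Around PSB27 the median of the 50 neighbours lay between -0.0873 and 0.0381, but the features right beside it shared its difference. The tested feature just before it and the 5 just after it, numbers 2305 to 2311, were below 0 in all 6 numbers, with mean log2 ratios from -0.445 to -0.229, each at or below that of PSB27. All 6 passed the threshold in the blocked fit and 0 without the block (limma), and the only one with a single gene name is AT4G33540. Of the 10 features nearest to PSB27, 7 were below 0 in all 6 numbers, a count that 0.0324% of all features tested reached, PSB27 alone, and for LPA19 and NdhS the count was 2, which 20% reached or passed. This run was singled out after its values were seen, and its part in the PSB27 difference was not tested. With the trend of these ratios along the feature numbers removed, the log2 change was -0.20 for PSB27, -0.27 for LPA19 and -0.22 for NdhS. With a trend removed from each array instead, a setting chosen after seeing the data, it was -0.14 for PSB27, -0.28 for LPA19 and -0.23 for NdhS. Without the arrays numbered 1 and 2, NdhS had a log2 change of -0.16.

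The genes differed most in how far they varied between replicate numbers. The sum of squares of the log2 values was divided into parts for number, treatment and the rest. Number took 95.9% of it for PSB27, 56.6% for NdhS and 14% for LPA19, beside a median of 76.8% over all features tested. These shares depend on the contrast that chose the members, because the total includes the treatment part. Treatment took 73.2% for LPA19, beside a median of 4.98%. The mean of both groups in each number was not used to choose the members. By this mean, the highest and lowest numbers of PSB27 differed 3.21-fold, and 24 of the 3091 features had a wider range. PSB27 averaged 3.33 and 3.83 in numbers 1 and 2, 2.64 and 2.79 in numbers 3 and 4, and 1.18 and 1.29 in numbers 5 and 6. The range was 1.39-fold for NdhS and 1.1-fold for LPA19, and 6.08% of features had a narrower one than LPA19. NdhS averaged 14.1 and 14.5 in numbers 1 and 2 and between 10.3 and 11 in the others. The sources used here do not say what the numbers stand for, so culture, extract and processing cannot be told apart as the origin of these levels.

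PSB27 and NdhS varied together from array to array and LPA19 varied apart from both. With the group means taken off, Pearson's r over the 12 arrays was 0.735 for PSB27 and NdhS (Spearman's rho 0.804), -0.0422 for PSB27 and LPA19 and -0.202 for LPA19 and NdhS. An r this high was common: of 612 other features with 1 gene, 103 reached 0.7 with PSB27 and 73 with NdhS. Only 1 did with LPA19. Same-numbered arrays deviate together, so these are not 12 independent points, and the values are a description. The log2 ratios of cytokinin to water did not follow this order: over the 6 numbers, r was -0.103 for PSB27 and NdhS, 0.0432 for PSB27 and LPA19 and -0.258 for LPA19 and NdhS.

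Among the 612 other features tested with 1 gene, the patterns most like PSB27 over the 12 arrays were those of AT2G26680 (r = 0.97), ETFQO, the electron-transfer flavoprotein:ubiquinone oxidoreductase (0.967), and AT2G19870 (0.949). With the group means taken off, AT2G26680 and ETFQO stayed at the head (0.973 and 0.97), followed by AT2G46050 (0.969). Over the 12 arrays 22 features reached an r of 0.9 with PSB27, 1 with NdhS and 0 with LPA19, and with the group means off 33, 18 and 0 did. NdhS was most like AT2G35490 (0.924), AT2G03140 (0.881) and AT2G25870 (0.877), and with the group means off AT4G27390 (0.943), AT1G24310 (0.938) and AT2G03140 (0.934). LPA19 was most like AT2G37580 (0.843), AT5G63390 (0.784) and TCP15, a TCP-family transcription factor (0.781), all lower with cytokinin, by log2 changes of -0.28, -0.34 and -0.32. Their shared direction is no separate finding, since treatment, which chose LPA19, took 73.2% of its sum of squares. With the group means off, it was most like OSB1, an organellar single-stranded DNA-binding protein (0.746), AT2G41950 (0.612) and RAP74, a subunit of the general transcription factor TFIIF (0.609). None of the first 3 was then among the 3 most similar genes. The features of NdhS, AT2G03140 and AT2G26680 have the nearby numbers 77, 87 and 92. Those of AT1G24310, AT2G25870 and AT2G19870 have 2852, 2853 and 2859. PSB27 itself has 2306, near AT4G27390 and AT2G35490 of the NdhS matches at 2334 and 2349. LPA19 has 4071, near OSB1 at 4049. The PSB27 matches ETFQO and AT2G46050 lie apart, at 943 and 3141, as do the other LPA19 matches. Whether nearness in feature number bears on these correlations was not tested.

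**Figure D3:**
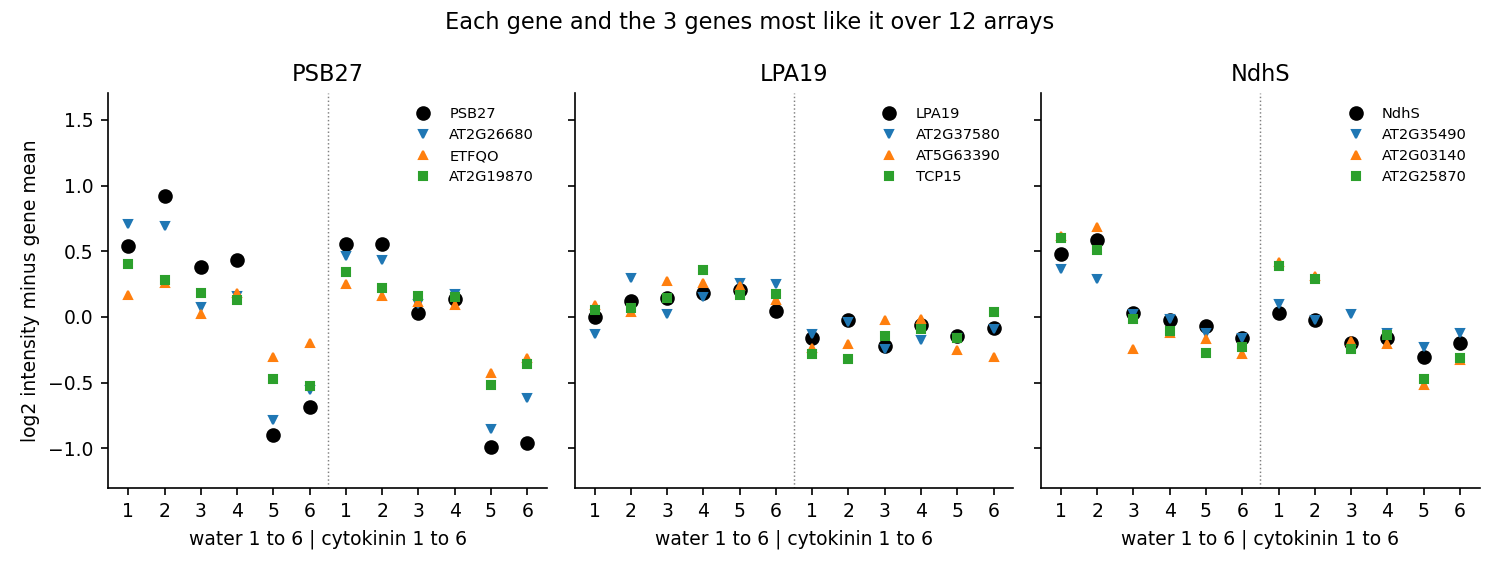
Log2 intensity minus the gene's mean (vertical axis) on the 12 arrays (horizontal axis, water 1 to 6 then cytokinin 1 to 6) for each gene, black circles, and the 3 genes with the highest Pearson's r to it, coloured. PSB27 and its most similar genes are lowest in numbers 5 and 6 of both groups. LPA19 and its similar genes are lower in cytokinin, the contrast that chose LPA19.

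The rest of the photosynthetic apparatus was covered thinly. Of 140 other listed genes of the photosystems, their assembly, the NDH complex, cyclic electron flow, light harvesting, the cytochrome b6f complex and ATP synthase, 12 are the only gene of a feature. Of these, 11 were tested. CCB3, which acts in attaching heme to cytochrome b6, was listed at 0 on all water arrays and was below the floor everywhere. Without a block 1 of the 11 rose and 0 fell at an adjusted p under 0.05, where 1.55% of all features passed, and at an unadjusted p under 0.05 there were 2 higher and 1 lower (limma). In the blocked fit 2 rose and 0 fell, where 11.7% of all features passed. The 0 was fixed in advance, because listed genes that fell in this fit are the members. At an unadjusted p in the blocked fit there were 5 higher and 1 lower. The share of all features passing at an unadjusted p was not counted, so nothing is read from the unadjusted counts. With numbers 1 and 2, 3 and 4, and 5 and 6, whose deviations correlated at 0.4 to 0.807 within a group, averaged into 3 sets and the set as a block, 1 rose, LHB1B2 (adjusted p = 0.0201). The median log2 change of the 11 was 0.09, with 8 above 0 and 3 below, beside 0.00282 for all features tested. The members, all below 0, are left out of these values, which tilts them upward.

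Among genes of photosystem II, the thylakoid subunits PSBW and PSBY had log2 changes of 0.20 and 0.09. PSBW was given the same rank-based value, 34, on all 6 cytokinin arrays by the normalization, so its spread there is not measured. On the values as deposited it lay between 23.5 and 33.5 in water and between 32.1 and 38.8 in cytokinin, with overlapping groups, and it was higher with cytokinin in 6 of 6 numbers. AT1G54500, listed with the assembly factors beside PSB27 and LPA19, had a log2 change of 0.07 (SE 0.06), and 5 of its 6 ratios were above 0. None of these 3 genes passed with or without the block (adjusted p from 0.144 to 0.909).

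In the NDH complex, NdhN, another subunit of the stromal part, ran from 0.908 to 1.63 in water with a median of 1.49, and from 1.31 to 1.47 in cytokinin with a median of 1.35. Its log2 change was 0.00 (SE 0.12), with 3 ratios above 0 and 3 below. The 3 factors of NDH assembly and expression all had values below 0. Cpn60beta4, a chaperonin subunit that folds an NDH subunit, had a log2 change of -0.19 with 6 of 6 ratios below 0 (adjusted p = 0.496 without the block and 0.0508 with it). CRR41, an assembly factor, had -0.09, and CRR21, an RNA-editing factor for an NDH transcript, had -0.01, and neither passed in either fit (adjusted p from 0.361 to 0.999).

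The genes that passed in this group were higher with cytokinin. In the blocked fit no other direction was possible, since the listed genes that passed as lower are the members themselves. LHB1B2, a light-harvesting protein of photosystem II, rose from 0.502 ± 0.0532 to 0.805 ± 0.0755 (SD, n = 6), with a log2 change of 0.68, 6 of 6 ratios above 0 and an adjusted p of 0.00144 (limma). PSAN, a photosystem I subunit whose feature number, 85, is near that of NdhS, had a log2 change of 0.27 with 6 of 6 ratios above 0 and passed only with the block (adjusted p = 0.0275, and 0.792 without). Its ratios were smallest in numbers 1 and 2, at 0.0622 and 0.0359, the numbers in which neighbouring features were low. PSAN missed the threshold on set means with the set as a block (adjusted p = 0.194) and in the blocked fit when number 3, 4, 5 or 6 was left out, and 1 gene then passed. AT1G22700, listed with photosystem I assembly, and AT1G49380, listed with the cytochrome complex, had 0.14 and 0.17. Neither passed with or without the block (adjusted p from 0.0767 to 0.961). AT1G49380 passed in the blocked fit when number 1 was left out. AT1G22700 passed in the blocked fit with a trend removed from each array. Whether features of genes in close families, such as LHB1B2 or the Psb27 pair, separate the family members is not known here.

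**Figure D4:**
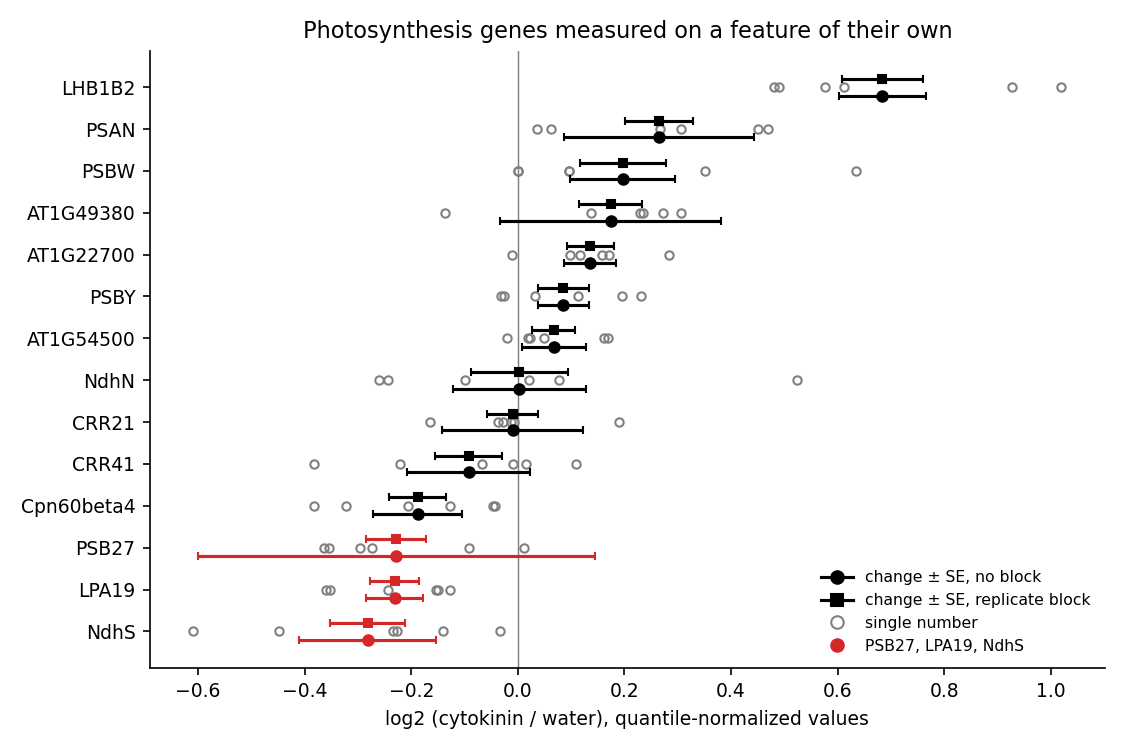
Log2 change (cytokinin over water, horizontal axis) of the 14 tested photosynthesis genes, members in red, with the SE without a block (circles) and in the blocked fit (squares), and the ratios of single numbers as open circles. PSB27 has the widest SE without the block, 0.37, and the members sit at the lower end because they were chosen there.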

How the data were processed

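The deposited table holds hybridization intensity values on a linear scale. How the authors scaled them, and the array and scanner, are not given in the sources used here. Genes were named from the platform annotation and updated through gene identifiers in a RefSeq table of assembly TAIR10.1, which held 690 of the 692 features with 1 gene. The files name no build, so no coordinates are printed.

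Arrays were quantile-normalized, values below a floor, percentile 10 of all positive values, were set to it, and 348 features that no array measured above the floor were dropped. The main comparison of water and cytokinin used the two-sided moderated test of limma 3.58.1 under R 4.3.3, without a block, with Benjamini-Hochberg adjustment over 3091 features at 0.05. The code was tested on simulated data. Plots were drawn with matplotlib 3.10.9.

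Deviations of same-numbered arrays from their group means correlated at 0.696 to 0.839, and all 12 arrays were closest to their same-numbered partner. The numbers were treated as pairs, from the data and not the labels, and blocked values stand beside results they change. The named genes are the members, all listed photosynthesis genes with a feature of their own, and the 3 most similar genes per member. Members, gene lists and settings were chosen with earlier results of these data known.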

Additional observations from a re-analysis of the deposited data

How the results depend on the processing

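The count of 48 changed features became 361 with the replicate block, 85 after median scaling and 76 with array weights. It ran from 32 to 43 without single arrays and from 14 to 26 without single replicate numbers. It was 7 without replicates 1 and 2, 7 without 3 and 4, and 42 without 5 and 6. On set means with the set as a block it was 41, and 1 pathway gene passed. With the replicate block it was 192, 179, 255, 229, 217 and 206 without number 1, 2, 3, 4, 5 and 6, and 111, 221 and 146 without 1 and 2, 3 and 4, and 5 and 6. With the block it was 453 once the trend of the ratios was removed and 478 once that of each array was. The cause was not tested. The count of 1 changed pathway gene became 2 with the replicate block, 2 with the trend of the ratios also removed and 3 with that of each array removed. In the blocked fit it ran from 1 to 3 without single numbers, 3 without number 1, and was 2 without numbers 1 and 2. LHB1B2 was among the calls in each of the 44 settings. For the members no sign turned in 35 settings each. This is partly built in, since they were chosen as lower on these same arrays. The log2 change of LPA19 was -0.339 as deposited, where the median of all features is also below 0, and -0.111 with a pseudocount of 0.5, which shrinks dim features. That of PSB27 ran from -0.431 to -0.0522, both without a single array, which unbalances the numbers, and from -0.276 to -0.201 without single numbers. That of NdhS ran from -0.356 to -0.0991. The settings that leave out numbers in the blocked fit, and the trend of each array, were added after seeing the data.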
